A study of Mus musculus with 6 samples.

Results

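Transcripts of 10 genes around AMP-activated protein kinase (AMPK) were followed in mouse primary osteoblasts with and without deletion of Mark3. The genes were chosen by name and encode the alpha (Prkaa1, Prkaa2), beta (Prkab1, Prkab2) and gamma (Prkag1, Prkag2) subunits of AMPK, the calcium/calmodulin-dependent kinase kinases Camkk1 and Camkk2, and the acetyl-CoA carboxylases Acaca and Acacb. All 10 were found by their Ensembl IDs among the 51912 genes of the count table, and all 10 passed the filter on low counts, which 19017 genes passed. The Mark3-KO group (3 libraries) came from calvarial osteoblasts of 1 d old C57BL/6J Mark3 flox/flox pups that received Cre adenovirus for 24 h. The WT group (3 libraries) came from the same kind of flox/flox cells, given GFP adenovirus for the same time. Cells of both groups thus carried floxed Mark3 alleles and an adenovirus, and Cre and the loss of Mark3 came together. Cre delivered in this way is not restricted to a cell type by a promoter named in the labels. Whether the replicates are separate cultures is not said in the labels, so the spread behind each p-value may be technical.

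AMPK is a trimer that senses falling cellular energy. Its alpha subunit carries the kinase domain, the beta subunit is the scaffold and binds glycogen, and the gamma subunit binds AMP, ADP and ATP. AMPK becomes active when its alpha subunit is phosphorylated in the activation loop, by LKB1 (encoded by Stk11) under energy stress or by CAMKK2 when calcium rises. MARK3 belongs to the AMPK-related kinases and is itself activated by LKB1. The best known targets of AMPK are the acetyl-CoA carboxylases, which make malonyl-CoA. ACACA supplies malonyl-CoA for fatty acid synthesis in the cytosol, and ACACB makes it at the mitochondrial surface, where it restrains the entry of fatty acids for oxidation.

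The 10 genes differ in the GC content of their transcripts, and the libraries differed from each other along the same property. Tested genes were cut into 10 equal bins by GC content. In the top bin (57.2 to 78.3% GC), the median over genes of the log2 ratio to each gene's own mean was -0.16, -0.52 and -0.72 in Mark3-KO replicates 1 to 3, against 0.88, 0.51 and 0.05 in WT replicates 1 to 3. Mark3-KO replicate 1 and WT replicate 3 were the closest to 0, and Mark3-KO replicate 3 and WT replicate 1 lay at the ends. The main fold changes are therefore given also after a GC correction, which subtracts each library's trend with GC content. Since the trend ran with the groups, this also subtracts any group difference that follows GC content. The source of the trend was not tested. Among the 10 genes, GC content ran from 40.2% for Prkaa1 to 56.7% for Acacb. To show what this spread looks like, a coding stretch of 120 bases is printed for 3 of the genes, taken where its composition is nearest to that of the whole transcript and lies within a single exon. Sequences are from GENCODE M21 transcripts (GRCm38), 5′ to 3′ on the coding strand, with G and C in capitals. Prkaa1 and Acacb mark the ends of the range, and Camkk2 had the lowest fold change after the correction.
Prkaa1 (chr15:5174249-5174368, + strand): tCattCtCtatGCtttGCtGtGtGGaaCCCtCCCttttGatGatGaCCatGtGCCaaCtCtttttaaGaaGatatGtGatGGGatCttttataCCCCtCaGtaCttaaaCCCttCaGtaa
Camkk2 (chr5:122746330-122746449, - strand): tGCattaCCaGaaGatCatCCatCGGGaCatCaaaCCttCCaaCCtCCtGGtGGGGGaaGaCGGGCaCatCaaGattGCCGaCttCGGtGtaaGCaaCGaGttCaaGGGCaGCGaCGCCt
Acacb (chr5:114165585-114165704, + strand): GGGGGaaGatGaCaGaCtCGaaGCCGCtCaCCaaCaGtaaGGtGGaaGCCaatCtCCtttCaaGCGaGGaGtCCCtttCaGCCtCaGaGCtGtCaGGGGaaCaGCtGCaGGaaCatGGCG
The Prkaa1 stretch holds 48 G or C bases of 120, the Camkk2 stretch 65 and the Acacb stretch 68.

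Mark3 itself, the check of the labels, was at 47.5, 52.3 and 44.1 CPM (counts scaled to TMM library sizes) in the Mark3-KO libraries, against 113, 117 and 117 CPM in the WT libraries. Mark3 fell in Mark3-KO, at -1.27 on the log2 scale (SE 0.10) and an edgeR adjusted p of 0.0153 (quasi-likelihood test, adjusted over all tested genes), or at -1.78 after the GC correction. Without WT replicate 2, Mark3-KO replicate 2 or Mark3-KO replicate 3, its edgeR adjusted p was 0.128, 0.0798 and 0.0681. Counts summed to between 56925883 and 71445243 per library, and each of the 10 genes except Acacb and Camkk1 had at least 460 counts in every library. The 12 osteoblast markers summed to 15529 to 22283 CPM in Mark3-KO and 22558 to 43807 CPM in WT, and the collagen genes Col1a1 and Col1a2 made up much of the sum. Most markers had a lower mean in Mark3-KO, and the median log2 fold change of the 12 was -0.46, or -0.28 after the GC correction. Every Mark3-KO library lay below every WT library for 6 markers and above for 1, against 27.4% and 25.9% of all genes. Col1a1 was at 4164 CPM in Mark3-KO and 13884 CPM in WT, and Runx2 at 57.7 CPM in Mark3-KO and 71.1 CPM in WT. Means were higher in Mark3-KO for Spp1 (1488 against 1177 CPM in WT), Postn (863 against 777 CPM) and Sparc (4630 against 3627 CPM). The Sparc libraries were at 6550, 5913 and 1426 CPM in Mark3-KO and 4129, 3787 and 2966 CPM in WT. The late markers Bglap and Bglap2 (osteocalcin) were low, with Bglap at 0.211 CPM in Mark3-KO and 0.702 CPM in WT. The 8 adipocyte markers summed to 3.71 to 4.06 CPM in Mark3-KO and 3.37 to 3.75 CPM in WT, mostly Pparg, with Cfd and Lep at 0 in every library. The 8 macrophage and osteoclast markers summed to 404 to 459 CPM in Mark3-KO and 376 to 426 CPM in WT, mostly Lyz2 and Ctsk. Every Mark3-KO library lay above every WT library for 2 of these 8 and below for 2. Their median log2 fold change was -0.18, or 0.12 after the GC correction. The 6 endothelial markers summed to 4.26 to 4.58 CPM in Mark3-KO and 4.20 to 4.51 CPM in WT. Mitochondrial genes took 2.07 to 3.22% of counts in Mark3-KO and 1.05 to 1.66% in WT. The part of these differences in the results below was not tested.

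In the comparison of Mark3-KO with WT, which asks what differs 24 h after Cre, 0 of the 10 genes passed the threshold of 0.05 on the edgeR adjusted p, where 0.216% of all tested genes passed. Of the 10, 5 had an unadjusted p below 0.05, namely Camkk2, Acacb, Prkab1, Prkaa1 and Camkk1, as did 45.7% of all genes tested. After the GC correction it was 3 of the 10 (Camkk2, Prkag1 and Prkag2), against 26.3% of all genes. The DESeq2 Wald test also called 5 of the 10 (1 higher and 4 lower). It called 38.6% of the 17895 genes that it gave an adjusted p (15.5% higher and 23.1% lower). The edgeR adjusted p of 4 of them lay between 0.0506 and 0.0549, in a range crowded by the rest of the table, since 24.8% of all genes had an adjusted p below 0.055. The libraries of Mark3-KO and WT did not overlap for 6 of the 10 genes (2 higher and 4 lower in Mark3-KO), against 53.3% of all genes (25.9% higher and 27.4% lower). The median log2 fold change was -0.12 over the 10 genes and 0.02 over all tested genes. After the GC correction these medians were -0.03 and 0.02, and 1 of the 10 passed, Camkk2, where 0.368% of all genes passed (0.0789% higher and 0.289% lower). On GC-corrected CPM the groups did not overlap for 5 of the 10, with Prkag1, Prkag2 and Camkk1 higher and Camkk2 and Acacb lower in Mark3-KO, against 33.1% of all genes.

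**Figure D1:**
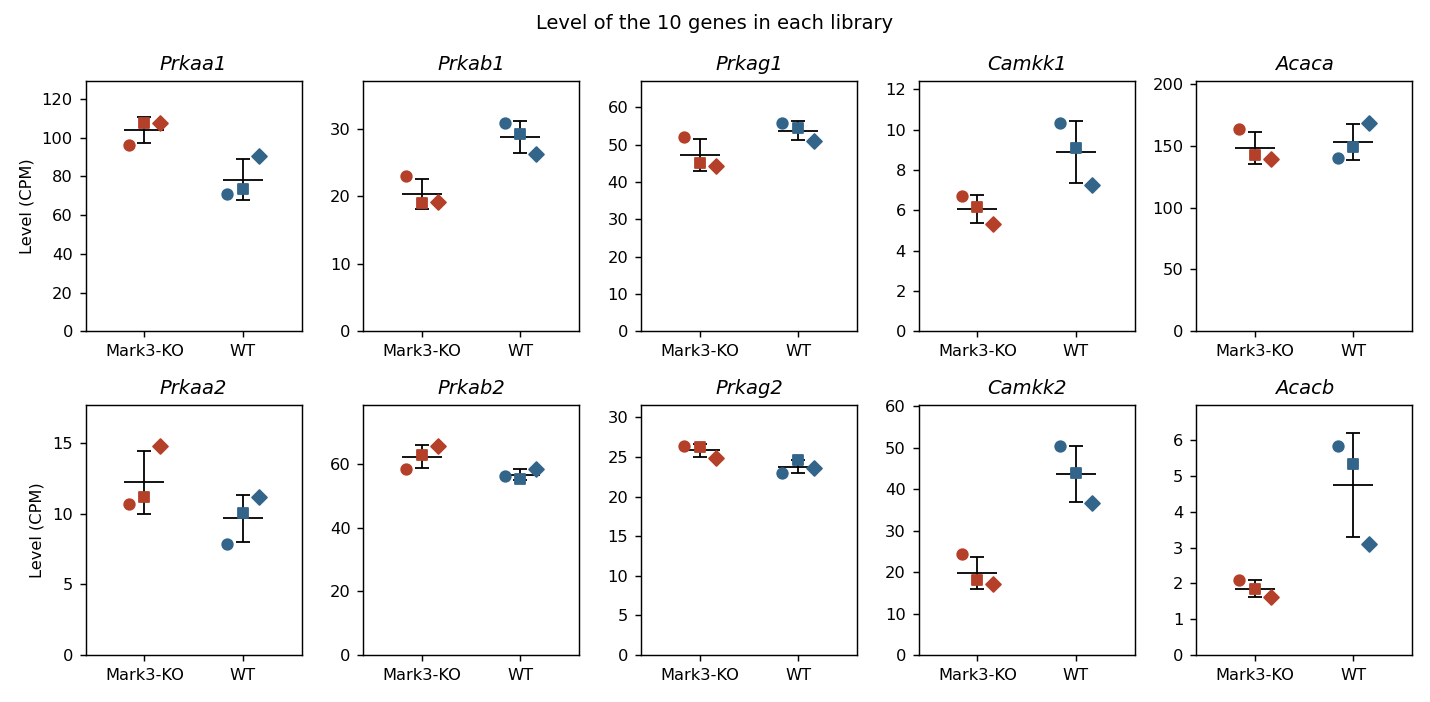
Level in CPM (y axis, from 0) of each of the 10 genes in the Mark3-KO (red, left) and WT (blue, right) libraries. Circles, squares and diamonds are replicates 1, 2 and 3, and bars show mean and SD (n = 3). Camkk2 reaches at most 24.3 CPM in Mark3-KO and at least 36.8 CPM in WT, while the Acaca libraries of both groups share 1 range.

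The kinase subunit genes had the lowest GC content of the set. Prkaa1 (chromosome 15, 5143861 to 5181899, GRCm38, protein coding) encodes the alpha1 subunit. It was at 96.3, 107.7 and 107.6 CPM in the Mark3-KO libraries and at 70.9, 73.4 and 90.4 CPM in the WT libraries. All 3 Mark3-KO libraries lay above all WT libraries, of which WT replicate 3 was the nearest. The fitted log2 difference was 0.41 (SE 0.12, edgeR adjusted p 0.0549), and it turned to -0.14 after the GC correction (SE 0.08, adjusted p 0.324). Prkaa2 (chromosome 4, 105029874 to 105109890) encodes the alpha2 subunit, which is prominent in skeletal muscle. It was at 10.7, 11.2 and 14.8 CPM in Mark3-KO and 7.88, 10.0 and 11.2 CPM in WT. The groups overlapped, and the fitted log2 difference of 0.33 (SE 0.20, edgeR adjusted p 0.224) likewise turned to -0.20 after the correction (adjusted p 0.253).

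The pair of beta subunit genes lay on opposite sides of 0. Prkab1 (chromosome 5, 116013586 to 116024508), for beta1, was at 22.9, 19.1 and 19.1 CPM in the Mark3-KO libraries and 30.9, 29.2 and 26.3 CPM in the WT libraries, with no overlap. Its fitted log2 difference was -0.50 (SE 0.13, edgeR adjusted p 0.0506) and turned to 0.24 after the GC correction (SE 0.11, adjusted p 0.223). Prkab2 (chromosome 3, 97658193 to 97673812), for beta2, was at 58.4, 62.8 and 65.5 CPM in Mark3-KO and 56.1, 55.2 and 58.4 CPM in WT. Its highest WT library just exceeded its lowest Mark3-KO library. On the log2 scale the difference was 0.14 (SE 0.09, edgeR adjusted p 0.284), and -0.05 after the correction.

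Neither of the gamma subunit genes passed the edgeR threshold, with or without the GC correction. Prkag1 (chromosome 15, 98812797 to 98831521), for gamma1, was at 52.0, 45.1 and 44.3 CPM in Mark3-KO and 55.9, 54.4 and 51.0 CPM in WT. Mark3-KO replicate 1 lay inside the WT range, and the fitted log2 difference was -0.19 (SE 0.11, edgeR adjusted p 0.203), or 0.22 after the GC correction (adjusted p 0.114). The antisense gene B130046B21Rik shares 43.7% of the Prkag1 exon bases, and the library kit does not mark strand, so reads of these genes cannot be told apart there. B130046B21Rik was itself at 7.03 CPM in Mark3-KO and 7.10 CPM in WT. Prkag2 (chromosome 5, 24862744 to 25100642), for gamma2, was at 26.3, 26.3 and 24.9 CPM in Mark3-KO and 23.0, 24.6 and 23.6 CPM in WT. Its groups did not overlap, by a narrow margin, and its fitted log2 difference was 0.12 (SE 0.10, edgeR adjusted p 0.390) and 0.24 after the correction (adjusted p 0.113). The antisense gene Prkag2os2 shares 12.3% of its exon bases, at 1.01 CPM in Mark3-KO and 0.682 CPM in WT. Prkag3, for the muscle subunit gamma3, stood at 0.380 CPM in Mark3-KO and 0.645 CPM in WT.

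Camkk2 was the sole gene of the 10 to pass after the GC correction, in a call that 4 of 6 omissions of a library ended. Camkk2 (chromosome 5, 122731170 to 122779409) encodes the calcium-responsive kinase that phosphorylates AMPK alpha. It was at 24.3, 18.1 and 17.1 CPM in the Mark3-KO libraries and 50.4, 43.8 and 36.8 CPM in the WT libraries, or 45.4% of the WT level by the fitted fold. The highest Mark3-KO library lay well below the lowest WT library. The fitted log2 difference was -1.14 (SE 0.19, edgeR adjusted p 0.0506). After the GC correction Camkk2 was at 24.7, 21.8 and 22.6 CPM in Mark3-KO and 38.9, 36.8 and 35.0 CPM in WT, and there it fell by 0.68 on the log2 scale (SE 0.08, edgeR adjusted p 0.0354). That call was lost without WT replicate 1, WT replicate 2, Mark3-KO replicate 2 or Mark3-KO replicate 3 (edgeR adjusted p 0.142, 0.227, 0.161 and 0.112), with log2 fold changes between -0.73 and -0.63 over all 6 omissions. It was also lost when the GC curve of each library was centred on 0 (-0.82, adjusted p 0.0545), the form fitted first, before the values led to the form used here.

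Camkk1, the paralog of Camkk2 (chromosome 11, 73019008 to 73042073), was at 6.73, 6.16 and 5.32 CPM in Mark3-KO and 10.3, 9.09 and 7.27 CPM in WT. The groups did not overlap, though WT replicate 3 and Mark3-KO replicate 1 lay close. On the log2 scale the difference was -0.55 (SE 0.18, edgeR adjusted p 0.0645), and it turned to 0.23 after the GC correction (SE 0.10, adjusted p 0.199).

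The products of the carboxylase genes are phosphorylated and inhibited by AMPK. Acaca (chromosome 11, 84129672 to 84401651) was at 163.6, 142.5 and 139.2 CPM in Mark3-KO and 140.7, 149.6 and 168.9 CPM in WT, with wide overlap. Its fitted log2 difference was -0.05 (SE 0.11, edgeR adjusted p 0.769), and -0.02 after the GC correction. Acacb (chromosome 5, 114146535 to 114250761) was at 2.09, 1.84 and 1.63 CPM in Mark3-KO and 5.82, 5.32 and 3.10 CPM in WT, from 154, 110 and 100 counts in Mark3-KO and 340, 294 and 208 counts in WT. The groups did not overlap, and the fitted log2 difference was -1.36 (SE 0.27, edgeR adjusted p 0.0506), or -0.34 after the correction (SE 0.15, adjusted p 0.206). Skeletal muscle expresses Acacb strongly, and the 10 skeletal muscle markers summed to 4.34 to 10.2 CPM in Mark3-KO and 12.3 to 22.3 CPM in WT. The 8 that passed the filter had a median log2 fold change of -1.36, or -0.72 after the GC correction. Every Mark3-KO library lay below every WT library for 4 of them and above for 0, against 27.4% and 25.9% of all genes. Acta1 was at 0.923 CPM in Mark3-KO and 5.02 CPM in WT, and Myh3 at 1.71 CPM in Mark3-KO and 4.59 CPM in WT. Ckm, the muscle creatine kinase gene, did not pass the filter, at 0.0246 CPM in Mark3-KO and 0.0657 CPM in WT. The part of muscle cells in the Acacb values was not tested, and in bulk RNA fewer cells of a type cannot be told from less RNA per cell.

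**Figure D2:**
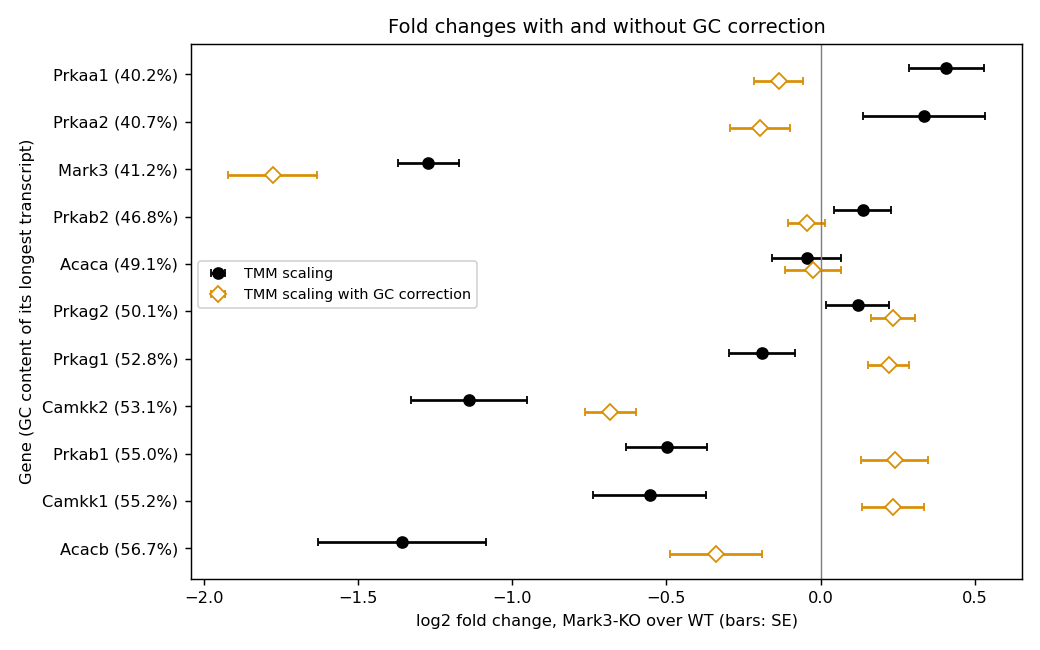
Fitted log2 fold change (x axis, Mark3-KO over WT, bars show SE) of the 10 genes and Mark3, ordered from low to high GC content. Filled circles use TMM scaling and open diamonds add the GC correction. Camkk2 and Acacb stay below 0 on both, and Prkaa1, Prkaa2, Prkab1, Prkab2, Prkag1 and Camkk1 change side.

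Genes of high GC content had the lower fold changes, among the 10 as among all genes. Across all tested genes, the median log2 fold change was 0.61 in GC bin 1, the lowest, and -1.29 in bin 10, the highest. Prkaa1 (0.41) and Prkaa2 (0.33) both lay in bin 1. Prkab1 (-0.50), Camkk1 (-0.55) and Acacb (-1.36) lay in bin 9, whose median was -0.81. Camkk2 (-1.14) and Prkag1 (-0.19) shared bin 8, whose median was -0.49. Relative to the median of its own bin, Camkk2 stood at -0.65 on the log2 scale and Acacb at -0.54, against 0.31 for Prkab1, 0.30 for Prkag1 and 0.26 for Camkk1. Prkaa1 stood at -0.20 and Prkaa2 at -0.27, below the median of theirs.

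**Figure D3:**
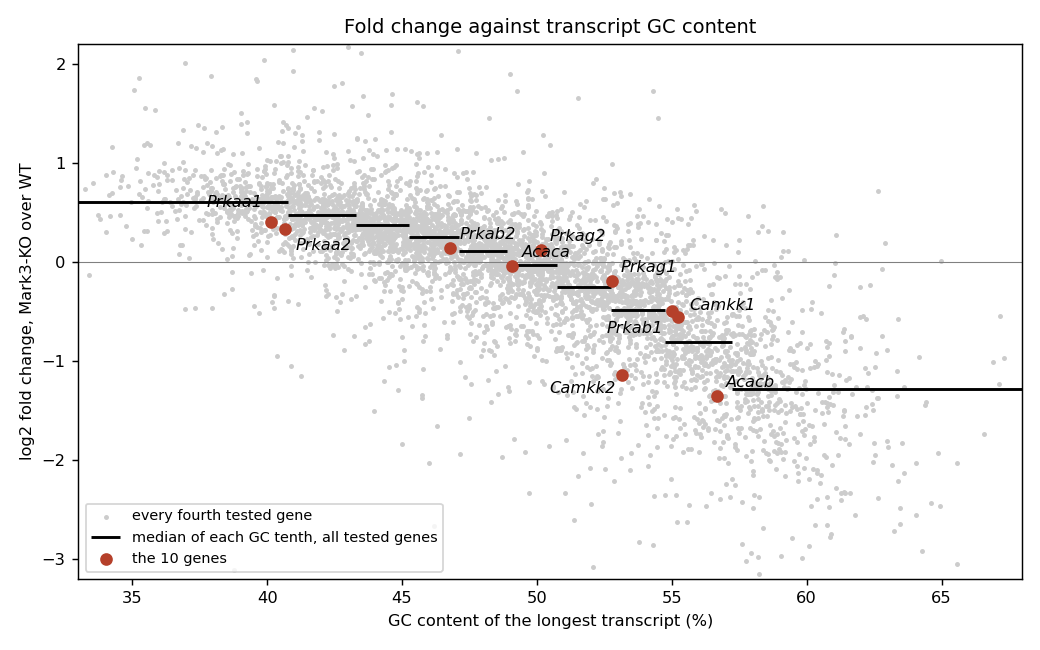
Log2 fold change (y axis, Mark3-KO over WT) against the GC content of the longest transcript (x axis, percent). Grey points are a regular subset of tested genes, with those beyond the axes not drawn, black lines are medians of the 10 GC bins, and red points are the 10 genes. The red points follow the black lines downward, with Camkk2 at -1.14 below the line of its bin at -0.49.

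Levels of different genes were compared per kb of exon. By the mean of all 6 libraries, Prkag1 was the most abundant at 23.2 CPM per kb, followed by Prkaa1 at 19.6, Prkab2 at 11.7, Acaca at 8.83, Prkab1 at 8.01, Prkag2 at 3.83, Camkk2 at 2.91, Camkk1 at 2.01, Prkaa2 at 1.38 and Acacb at 0.343 CPM per kb. The ranges over the libraries overlapped between Prkag1 and Prkaa1, Acaca and Prkab1, Prkag2 and Camkk2, Camkk2 and Camkk1, and Camkk1 and Prkaa2. The other neighbours in this order did not overlap. Among the overlapping pairs the order of the group means was not always that of the pooled mean. Prkaa1 (22.3 CPM per kb) stood above Prkag1 (21.7) in Mark3-KO, and in WT Prkab1 (9.39) stood above Acaca (8.96) and Camkk2 (3.998) above Prkag2 (3.67). For Prkag1, 43.7% of the exon bases are shared with B130046B21Rik, and how shared reads were counted is not given. That limits the place of Prkag1 in the order and its share of the gamma pair below. The order also rests on the length used. Of the exon bases, 813 of 5096 were coding in Prkab2, 1677 of 4655 in Prkaa1 and 990 of 2175 in Prkag1. Per kb of coding sequence Prkab2 would therefore stand above Prkaa1 and Prkag1. Within the alpha and gamma pairs these cultures thus held mostly alpha1 and gamma1 transcripts, with both beta subunits present.

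Within each pair the balance between paralogs was compared as a share of the pair's level per kb, a measure that library scaling cannot move. Its level depends on the length used, here that of all exons. Prkaa1 made up 93.6 ± 0.89% of alpha subunit transcripts in Mark3-KO and 93.3 ± 0.65% in WT (SD, n = 3 each, exact two-sided permutation p = 0.80). Prkab1 made up 39.5, 33.5 and 32.7% of beta subunit transcripts in the Mark3-KO libraries and 47.8, 46.8 and 42.8% in the WT libraries. Every Mark3-KO library lay below every WT library, a difference of -10.5 points. After the GC correction the sign turned, with 42.8 ± 1.43% in Mark3-KO and 38.0 ± 3.08% in WT (SD, n = 3 each, exact permutation p = 0.10). Prkag1 made up 84.4 ± 0.95% of gamma subunit transcripts in Mark3-KO and 87.1 ± 0.70% in WT (SD, n = 3 each), and after the correction 85.7% in Mark3-KO and 85.9% in WT.

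Camkk2 made up 55.2, 50.04 and 52.3% of CAMKK transcripts in the Mark3-KO libraries, against 62.4, 62.2 and 63.3% in the WT libraries. Camkk2 has 10921 exon bases (2108 coding) and Camkk1 has 3728 (1515 coding), so the share would be higher by coding length. By that length the difference between groups was -7.99 points. The Camkk2 difference of -10.1 points was larger than the SD of either group (2.60 points in Mark3-KO and 0.60 points in WT). So were the differences for Prkab1, Prkag1 and Acaca. After the GC correction the Camkk2 difference became -15.3 points, at 49.8 ± 3.73% in Mark3-KO and 65.2 ± 1.69% in WT (SD, n = 3 each). Acaca made up 97.8 ± 0.12% of acetyl-CoA carboxylase transcripts in Mark3-KO and 94.7 ± 1.92% in WT (SD, n = 3 each), and after the correction 97.0% in Mark3-KO and 96.3% in WT. For the shares of Prkab1, Prkag1, Camkk2 and Acaca the exact two-sided permutation p was 0.10, the smallest that 3 against 3 libraries allow, and 0.125 after Benjamini-Hochberg adjustment over the 5 shares, so 0 shares passed. For the Camkk2 share after the GC correction it was also 0.10 by the exact permutation test (0.25 adjusted over the 5 shares).

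**Figure D4:**
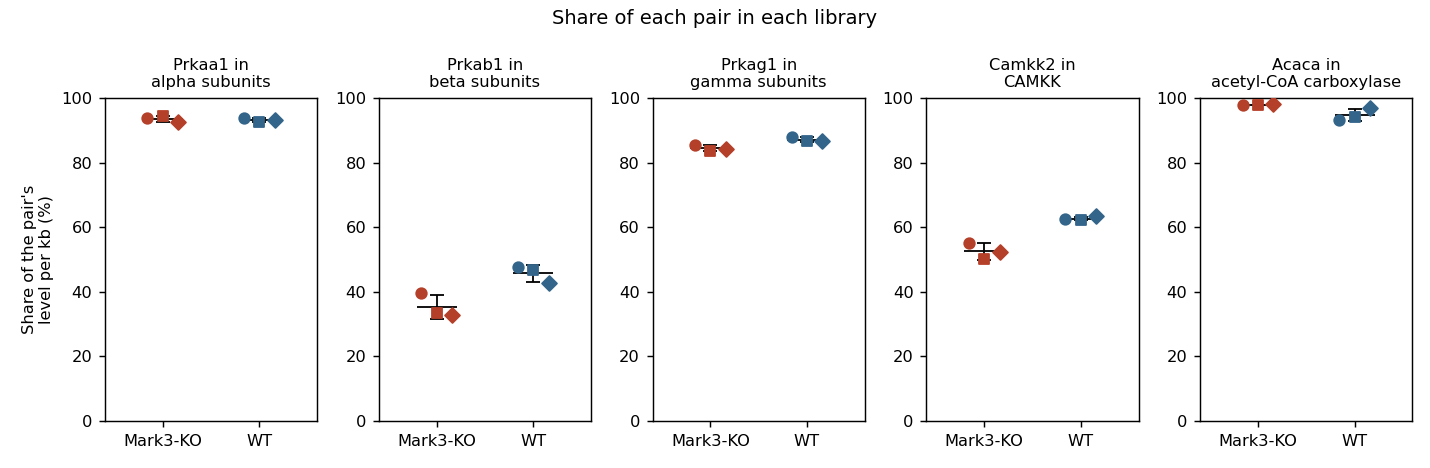
Share (y axis, percent, 0 to 100) of the named gene in the summed level per kb of its pair, in each Mark3-KO (red, left) and WT (blue, right) library, with mean and SD (n = 3) and replicates 1, 2 and 3 as circles, squares and diamonds. The Prkab1 and Camkk2 shares are lower in all 3 Mark3-KO libraries, by 10.5 and 10.1 points of the mean, and the alpha subunit shares overlap.

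Summed over each pair, CAMKK transcripts were at 3.44 ± 0.53 CPM per kb in Mark3-KO and 6.39 ± 1.03 CPM per kb in WT (SD, n = 3 each), a ratio of 0.539, or 0.817 after the GC correction. The ratio of Mark3-KO to WT was 1.32 for the alpha, 0.920 for the beta and 0.904 for the gamma subunits, and 0.908, 1.05 and 1.17 after the correction. All 3 subunit sums thus lay on the other side of 1 once the GC trend was subtracted. The carboxylase sum had ratios of 0.940 and 0.977.

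Genes upstream of, downstream of and beside AMPK were taken as 4 lists. In each of them 0 genes passed the edgeR threshold in either direction, where 0.0473% of all genes passed as higher and 0.168% as lower. Beside the counts that follow, 45.7% of all genes had an unadjusted edgeR p below 0.05 (26.3% after the GC correction). DESeq2 called 38.6% of the genes that it gave an adjusted p. Of 15 regulators of AMPK, edgeR gave 6 an unadjusted p below 0.05 (5 after the GC correction) and DESeq2 called 5, and their median log2 fold change was 0.21, or -0.16 after the GC correction. Stk11, which encodes the upstream kinase LKB1, was at 16.7 ± 5.05 CPM in Mark3-KO and 50.2 ± 16.7 CPM in WT. Its log2 fold change of -1.59 (edgeR adjusted p 0.0506) became -0.28 after the correction. Tab1, which encodes the partner of the kinase TAK1, had a log2 fold change of -1.64, and -0.49 after the correction. Fnip1, which encodes a partner of folliculin that binds AMPK, was at 0.54, and Ppp2ca, a catalytic subunit gene of protein phosphatase 2A, at 0.39, both near 0 after the correction (-0.07 for Fnip1 and 0.05 for Ppp2ca).

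Of 12 genes of calcium entry, calmodulin and CaM kinases around the CAMKKs, edgeR gave 8 an unadjusted p below 0.05 (0 after the GC correction) and DESeq2 called 5, with a median log2 fold change of -0.48, or -0.09 after the GC correction. Calm3, a calmodulin gene, was at 116 ± 56.2 CPM in Mark3-KO and 275 ± 63.6 CPM in WT (log2 fold change -1.24, edgeR adjusted p 0.0515), and at -0.13 after the correction. Camk1g and Pnck, which encode CaM kinase I isoforms, were below 1 CPM in both group means. The log2 fold change of Camk1g was -1.09, or -0.57 after the correction, and that of Pnck was -0.70 and turned to 0.12.

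Of 22 genes for AMPK substrates, edgeR gave 15 an unadjusted p below 0.05 (8 after the GC correction) and DESeq2 called 13, with a median log2 fold change of -0.22, or -0.01 after the GC correction. Pfkfb3, which encodes an enzyme that raises the glycolysis activator fructose 2,6-bisphosphate, was at 14.02 ± 3.04 CPM in Mark3-KO and 31.6 ± 1.84 CPM in WT. The fitted log2 difference was -1.17 (SE 0.18, edgeR adjusted p 0.0506), and it passed after the GC correction at -1.06 (adjusted p 0.0445), as the sole gene of the 4 lists to do so. That call was lost without WT replicate 1, WT replicate 2 or Mark3-KO replicate 2 (edgeR adjusted p 0.148, 0.234 and 0.162) and with the curve centred on 0 (0.0541). Cdc27, for a subunit of the anaphase promoting complex, was at 0.67 and at 0.09 after the correction. Rptor, for the mTORC1 scaffold raptor, was at -0.99 and Srebf2, for the sterol response factor SREBP2, at -1.29, and the correction brought them to -0.04 and -0.14.

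Of 16 genes of the fatty acid pathway around the carboxylases, 15 were tested, edgeR gave 8 an unadjusted p below 0.05 (4 after the GC correction) and DESeq2 called 7. Their median log2 fold change was -0.38, and -0.11 after the GC correction. Fasn, the fatty acid synthase gene that uses malonyl-CoA, was at 90.1 ± 33.3 CPM in Mark3-KO and 290 ± 115 CPM in WT (log2 fold change -1.69, edgeR adjusted p 0.0506), and at -0.54 after the correction. Acly, for the enzyme that makes cytosolic acetyl-CoA from citrate, was at 208 ± 29.1 CPM in Mark3-KO and 313 ± 29.3 CPM in WT (-0.59, edgeR adjusted p 0.0506), and at -0.27 after the correction. Mlycd, for malonyl-CoA decarboxylase, had a log2 fold change of -1.26, or -0.01 after the correction, and Slc25a1, for the mitochondrial citrate carrier, one of -0.69, or 0.53 after it.

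**Figure D5:**
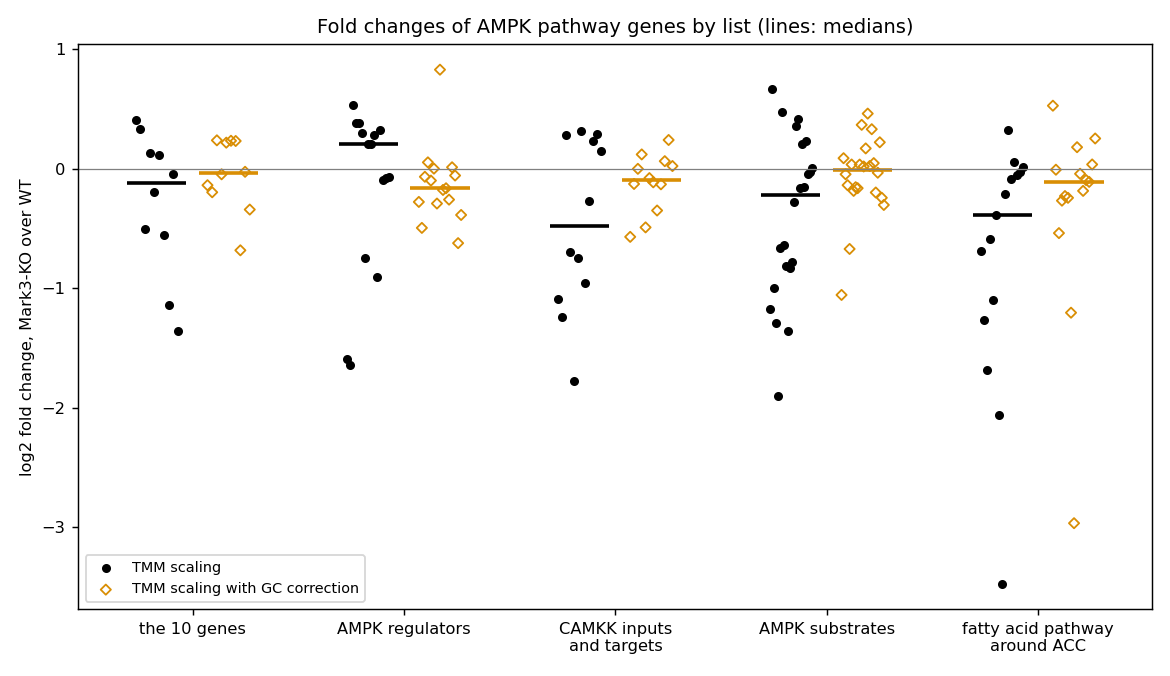
Log2 fold change (y axis, Mark3-KO over WT) of each tested gene in the set of 10 and in the 4 lists around AMPK, with medians as lines. Filled circles use TMM scaling and open diamonds add the GC correction, which brings the median of the 22 AMPK substrate genes to -0.01 and that of the 15 tested fatty acid pathway genes to -0.11.

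The genes most like the alpha subunit genes over the 6 libraries were found by the root mean square difference of log2 CPM, each gene centred on its own mean, among 8954 protein-coding genes of at least 10 CPM. For Prkaa1 they were Mak16, Eif2s3x and Amer1, with differences of 0.02 on the log2 scale, and 1462 genes lay within 0.1. For Prkaa2 they were Zfp383, Glrb and Lum, with differences of 0.04 to 0.05, and 192 genes lay within 0.1. The median difference over all compared genes was 0.28 from Prkaa1 and 0.30 from Prkaa2.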

How the data were processed

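The authors deposited raw whole-number counts for 51912 Ensembl genes in 6 libraries. The submitters' processing notes name HISAT2 2.0.5, StringTie, DESeq2, FastQC and the build GRCm38. The settings, and how reads shared by genes were counted, are not given in the sources used here. The kit, TruSeq RNA version 2 per the labels' protocols, does not mark strand. Symbols, coordinates, exon union lengths and transcript sequences came from GENCODE M21 (GRCm38), which matched 51719 IDs.

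Genes were kept with filterByExpr and fitted over the whole table with edgeR 4.0.16 (R 4.3.3), using TMM scaling, the quasi-likelihood test and Benjamini-Hochberg adjustment over 19017 genes (threshold 0.05). Each SE divides the fold change (log2) by the root of its F statistic. The GC correction entered as an offset a natural spline (6 degrees of freedom) of each gene's log2 ratio to its mean on the GC content of its longest transcript, fitted per library with its level included. Its level was included after a first fit centred on 0 had moved the median of all genes, and that fit is reported too. Shares were tested with an exact permutation test (SciPy 1.17.1). Alternatives used DESeq2 1.42.0 and limma 3.58.1. The fits were also run on simulated independent libraries with the same dispersion for all genes. That setting is simpler than these data, so it does not check the p-values given here.

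The members and lists were chosen with earlier results of these data known. Named genes are the 10, Mark3, up to 4 tested genes of each list with the smallest edgeR p, and the 3 nearest patterns to Prkaa1 and to Prkaa2. One gene that this rule takes is not reported here. Prkag3, the marker genes and genes sharing exon bases are given as context. Counts carry no molecular identifiers.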

Additional observations from a re-analysis of the deposited data

How the results depend on the processing

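The share called among all genes tested under the same setting stands in brackets, and the number of genes tested differs between settings. Of the 10 genes, 3 passed with scaling by library size alone (23.7%), 5 with the DESeq2 Wald test (38.6%), 4 with a filter of 1 CPM in 3 libraries (37.4%) and 1 with the GC correction (0.368%). Leaving out a library gave 0 to 5, namely 5 where WT replicate 3 was omitted (32.9%), 4 where Mark3-KO replicate 1 was (32.1%), and 0 for the other 4 (0 to 0.0717%). With the GC correction as well it gave 1 without WT replicate 3 (4.51%) or Mark3-KO replicate 1 (7.25%), and 0 for the other 4 (0.0964 to 0.3%). With DESeq2 size factors, limma-voom, no filter, the GC curve centred on 0, or the 4 libraries nearest in GC profile, 0 passed (0 to 0.379%). The 4 libraries and the GC correction with a library left out were chosen after seeing the data. So was the level kept in the GC curve, in place of the curve centred on 0 that was fitted first, and that choice decides the Camkk2 call. The cause of these differences was not tested. Over all genes the median fold change (log2) was 0.02 with TMM, 0.13 with library size alone and -0.11 with the curve centred on 0. Depth limits Acacb and Camkk1 most, the genes with the fewest counts.

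Whether replicate numbers pair the libraries is not known from the labels, and the check for it was not met for every number. The correlation of deviations from the group means was 0.50 for number 1, -0.04 for number 2 and 0.42 for number 3, and not every library correlated best with its own number. On GC-corrected levels these correlations were lower for numbers 1 and 3, at 0.20 and 0.12, and -0.03 for number 2. With the replicate block, 5 of the 10 passed, where 44.6% of all genes passed. With the replicate block and GC correction 1 passed, Camkk2 (-0.68, edgeR adjusted p 0.0202), where 8.43% of all genes passed.

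For 6 genes the sign turned, given here with the GC correction, with replicate block and GC correction, and with the curve centred on 0. They were Prkaa1 (-0.14, -0.14, -0.27), Prkaa2 (-0.20, -0.20, -0.33), Prkab1 (0.24, 0.24, 0.11), Prkab2 (-0.045, -0.045, -0.18), Prkag1 (0.22, 0.22, 0.085) and Camkk1 (0.23, 0.23, 0.10). With a library left out, Prkaa1 ran from 0.34 to 0.51 without and -0.19 to -0.063 with the GC correction, Prkaa2 from 0.17 to 0.44 and -0.25 to -0.14, and Prkab1 from -0.60 to -0.45 and 0.16 to 0.32. Likewise Prkab2 ran from 0.093 to 0.18 and -0.069 to -0.025, Prkag1 from -0.27 to -0.15 and 0.18 to 0.26, and Camkk1 from -0.69 to -0.44 and 0.19 to 0.29. Acaca turned to 0.063 with library size alone, and ran from -0.12 to 0.018 with a library left out and from -0.088 to 0.051 with the correction as well. Camkk2, Acacb and Prkag2 kept their sign in each of the 23 alternative fits.

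The Prkaa1 share difference ran from -0.0265 to 0.82 points with a library left out, turning sign without Mark3-KO replicate 2 or WT replicate 2. The Prkab1 difference turned to 4.75 points with GC-corrected CPM. The Prkag1 difference was -3.66 points with coding length, -4.80 points with no division by length and -0.14 points with GC-corrected CPM. The Camkk2 difference was -6.69 points with no division by length and -15.3 points with GC-corrected CPM. The Acaca difference was 0.712 points with GC-corrected CPM.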
